A study of Mus musculus with 24 samples.

Results

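Transcript levels in primitive erythroid cells of the mouse embryo were compared between E11.5 and E8.5 (E, embryonic day), 3 days apart, while these cells still divide. The comparison used 6 of the 24 Illumina bead arrays of the study, E11.5 replicates 1 to 3 and E8.5 replicates 1 to 3, chosen by their titles and their 1 round of RNA amplification. All embryos carried the transgene human epsilon globin::H2B-EGFP, in which a human embryonic globin promoter drives a green fluorescent histone, and GFP(+) cells were sorted by flow cytometry. No treatment and no wild-type control was part of the comparison, and the labels used here name no strain. E8.5 cells were sorted from collagenase-digested whole embryos and each E8.5 replicate was a pool of embryos, whereas E11.5 cells were sorted from embryonic blood and each E11.5 replicate came from 1 embryo. Stage therefore cannot be told apart from tissue of origin, from pooling, or from slide, since E8.5 replicates 1 to 3 lay on slide 2 and E11.5 on slide 4. The sort gate selects cells in which the globin promoter is active, so cells that had not yet switched it on are outside the measurement.

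Primitive erythroid cells are the first red blood cells of the embryo. They arise in the yolk sac as large nucleated cells, enter the circulation when the heart begins to beat, and mature there as a synchronous cohort that fills with hemoglobin, divides a limited number of times, condenses its chromatin and later loses its nucleus. Red cell maturation is known for the build-up of globin, heme and the spectrin-based membrane skeleton and for the removal of organelles and of the machinery for growth.

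3 further sets of arrays served to judge the comparison. E9.5 (replicates 1 to 3, slide 2) and E10.5 (replicates 1 to 3, slide 4) lie between both ends in time, so that the first day (E8.5 to E9.5) and the third day (E10.5 to E11.5) each fall within 1 slide. The sum of these within-slide steps is the share of the net change that never crosses slides. E8.5 replicates 4 to 6, on slide 3, gave a second set of arrays of the starting stage. A gene is called when its adjusted p is under 0.05 in a limma model of the 12 arrays of slides 2 and 4, with Benjamini-Hochberg adjustment over 9024 named genes, and it is described as held when it was also called in the same direction against E8.5 replicates 4 to 6 and in the within-slide steps. Levels are normalised log2 signals of 1 probe per gene, differences are E11.5 minus E8.5 in log2 units with the standard error (SE) of the fit, and n = 3 arrays per stage throughout. The labels call the arrays replicates without saying that each came from a separate litter, so p-values measure the spread between these samples.

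Of 45719 probes, 14176 to 15387 were detected on each E8.5 array and 12355 to 14050 on each E11.5 array. Replicates of a stage correlated at 0.973 to 0.994 over tested genes. Arrays of E8.5 replicates 4 to 6 and 1 to 3 differed in 46.2% of 8164 genes, 28.9% higher and 17.4% lower in replicates 4 to 6, although they share stage and amplification. Of the erythroid markers, Hbb-bh1 (embryonic beta-like globin), Hba-x (embryonic zeta globin), Alas2, Slc4a1, Klf1, Gata1 and Tal1 were detected on every array at both ends, while Hbb-y had no tested probe. Visceral endoderm markers, genes of the yolk sac layer that touches the blood islands, were present at E8.5: their summed signal over 27 genes ranged from 237 to 1300 at E8.5 and from 124 to 146 at E11.5, where 24 of the 27 were detected on no array. Apoa1, an apolipoprotein of that layer, read at least 6.61 on each E8.5 array and 4.70, 4.47 and 4.41 at E11.5 (-2.67 ± 0.27, adjusted p = 8.1e-08), so the stages do not overlap. At E8.5 replicate 2 was the highest for Apoa1, for Amn (4.41, 6.33 and 5.41) and for Apoa2 (4.59, 7.07 and 5.76). Gata4 was highest on replicate 3 (4.92, 5.64 and 5.86). The part of visceral endoderm cells in the genes that fell was not tested.

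Of the 9024 genes, 4708 (52.2%) were called, 1915 higher (21.2%) and 2793 lower (31% of genes tested) at E11.5. The 3 arrays of one stage did not overlap the 3 of the other in 2153 genes that were higher (23.9% of genes tested) and 3041 that were lower (33.7%), and 4540 genes were both called and without overlap (50.3%). The change exceeded 2-fold in 2074 called genes (23%), 900 higher (9.97%) and 1174 lower (13%), and 8-fold in 74 (0.82%). In the within-slide steps 3007 genes (33.3%) were called, 1015 higher (11.2%) and 1992 lower (22.1%), 2850 of them (31.6% of genes tested) in the direction of the net call. Against E8.5 replicates 4 to 6 the count was 5249 (58.2%), 2039 higher (22.6%) and 3210 lower (35.6%), and 3669 net calls (40.7% of genes tested) were repeated. In all, 2516 genes (27.9%) held, 907 higher (10.1%) and 1609 lower (17.8%), which is 53.4% of the genes called. A count of list members is read below against these shares.

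**Figure D1:**
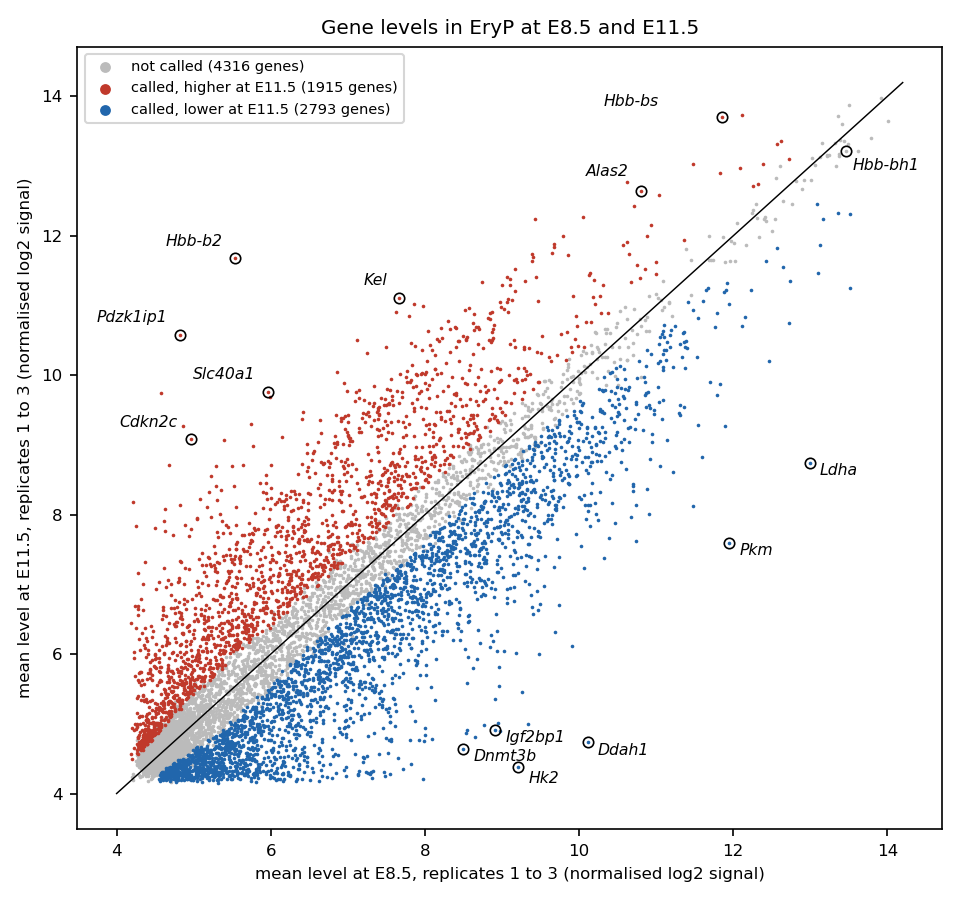
Mean normalised log2 level of each of 9024 genes at E8.5 (horizontal) and E11.5 (vertical), 3 arrays each, with called genes coloured and the line marking equal levels. The 1915 genes called higher lie above the line and the 2793 called lower beneath it, and the circled genes are described in the text.

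The sequences below are promoters of 5 genes from groups that moved together, from 250 bases before to 50 after the transcription start in RefSeq (GRCm38.p6), shown because each holds the letters of a binding motif of a factor linked to its group. They were taken as the member with the largest change whose promoter holds the motif. Capitals mark the motif on the strand on which it was found: AGATAA or its reverse complement for GATA factors, CACACCC for the erythroid Krüppel-like factor KLF1, and CACGTG, the E-box bound by MYC among others. Hbb-bs encodes adult beta globin (chr7:103827879-103828178, minus strand), with a GATA motif starting at -210 and a KLF1 motif at -92 from the start site. Alas2 encodes the erythroid enzyme that starts heme synthesis (chrX:150547167-150547466, plus strand, GATA motif at -86). Kel encodes the Kell blood group protein (chr6:41704276-41704575, minus strand, GATA motif at -56). Hk2 encodes hexokinase 2 (chr6:82774405-82774704, minus strand, KLF1 motif at -84). Utp4 encodes a factor of small ribosomal subunit assembly (chr8:106893390-106893689, plus strand, E-box at 15).
Hbb-bs: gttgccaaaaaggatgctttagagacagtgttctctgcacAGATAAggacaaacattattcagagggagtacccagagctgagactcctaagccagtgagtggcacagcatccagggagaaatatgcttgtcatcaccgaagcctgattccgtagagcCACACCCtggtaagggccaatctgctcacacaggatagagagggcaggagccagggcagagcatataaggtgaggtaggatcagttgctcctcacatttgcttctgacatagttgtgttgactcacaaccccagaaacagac
Alas2: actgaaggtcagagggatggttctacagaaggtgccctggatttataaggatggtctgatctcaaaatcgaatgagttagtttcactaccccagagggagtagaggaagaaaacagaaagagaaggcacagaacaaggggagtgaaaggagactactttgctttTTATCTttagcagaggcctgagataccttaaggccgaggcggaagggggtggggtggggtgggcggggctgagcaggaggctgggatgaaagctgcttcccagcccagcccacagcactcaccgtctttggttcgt
Kel: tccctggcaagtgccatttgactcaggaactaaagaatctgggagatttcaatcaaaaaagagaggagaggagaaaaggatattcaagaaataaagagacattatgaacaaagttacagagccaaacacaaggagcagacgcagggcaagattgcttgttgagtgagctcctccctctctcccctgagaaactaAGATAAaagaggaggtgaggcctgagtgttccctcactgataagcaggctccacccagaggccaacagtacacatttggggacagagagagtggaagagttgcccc
Hk2: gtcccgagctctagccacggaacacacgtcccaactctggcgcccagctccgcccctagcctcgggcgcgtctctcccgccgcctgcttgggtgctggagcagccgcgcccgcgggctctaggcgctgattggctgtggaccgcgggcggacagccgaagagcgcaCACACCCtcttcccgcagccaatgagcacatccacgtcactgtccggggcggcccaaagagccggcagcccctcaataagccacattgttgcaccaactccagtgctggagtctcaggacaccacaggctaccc
Utp4: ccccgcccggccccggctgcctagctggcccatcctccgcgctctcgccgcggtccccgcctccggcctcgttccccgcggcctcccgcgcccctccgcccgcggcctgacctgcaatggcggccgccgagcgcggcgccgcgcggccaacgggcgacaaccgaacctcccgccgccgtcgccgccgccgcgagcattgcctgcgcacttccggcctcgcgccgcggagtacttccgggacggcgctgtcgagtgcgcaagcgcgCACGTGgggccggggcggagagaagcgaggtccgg

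Both strands of all promoters were searched for these motifs and for the E2F motifs TTCGCGC and TTGGCGC, and the E-box reads the same on both strands. Of 27025 promoters, 12.7% held the GATA motif, 9.05% the KLF1 motif, 8.09% the E-box and 4.47% an E2F motif. Among the 7396 tested genes with a promoter in the table, the shares were 8.52%, 9.73%, 11.8% and 8.3% in the same order. Of the 1550 promoters of genes called higher, 151 held the GATA motif (9.74%), 179 the KLF1 motif, 178 the E-box and 6.77% an E2F motif. Of the 2325 promoters of genes called lower, the shares were 7.05%, 9.33%, 13.7% and 9.55%. The GATA and KLF1 motifs were somewhat commoner in the former and the E-box and E2F motifs in the latter, and these differences were not tested. Within lists, the GATA motif was in 7 of 19 promoters of the red cell membrane list and 0 of 35 of the ribosome assembly list, the KLF1 motif in 5 of 13 of the glycolytic enzymes, the E-box in 8 of 35 of the ribosome assembly list, and an E2F motif in 8 of 30 of the DNA replication list. The E-box was also in 7 of 30 promoters of the DNA replication list and 6 of 20 of the translation factors. An E2F motif was in 5 of 18 of the integrated stress response list and 4 of 9 of the MYC and E2F factors. Neither motif is thus particular to the list named first for it. These are matches of letters and not evidence of binding.

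Adult-type globins rose while the embryonic globins, near the top of the scale at both ends, were not called. Of 6 tested genes of the adult globin list, 5 were called higher, 0 lower, and 4 held. Hbb-b2, an adult beta globin, read 5.13, 5.87 and 5.62 at E8.5 and 11.81, 11.43 and 11.81 at E11.5, a difference of 6.14 ± 0.56 (adjusted p = 2.7e-08), the largest of all genes tested. The stages do not overlap. The E10.5 arrays lie far apart at 6.61, 10.24 and 8.88. Hbb-bs read 12.12, 11.68 and 11.74 at E8.5 and 13.73, 13.78 and 13.62 at E11.5 (1.86 ± 0.16, adjusted p = 1.2e-08), with a first step of 1.65 (adjusted p = 7.3e-07). From E9.5 on it read at least 13.35, close to the highest level in the data (14.05), which leaves little range for later steps. Hbb-bt, the other adult beta globin of the same haplotype, rose by 1.62 ± 0.20. Hbq1b, a theta globin, rose by 3.02 ± 0.17. Hbb-b2, Hbb-bs and Hbb-bt are near-identical copies, so their probes can share signal, and the division among them is uncertain.

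Hbb-bh1 read 13.18, 13.50 and 13.73 at E8.5 and 13.19, 13.09 and 13.37 at E11.5 (-0.25 ± 0.18, adjusted p = 0.27), so its ranges overlap. Hba-x read 13.43, 13.89 and 14.05 against 13.29, 13.49 and 13.43 (-0.39 ± 0.19, adjusted p = 0.10). Hba-a1, adult alpha globin, gave -0.39 ± 0.19 (adjusted p = 0.095). These probes lie close to the highest level in the data, 14.05, and whether differences are compressed there was not tested. Against E8.5 replicates 4 to 6 each was called lower (Hbb-bh1 -0.65, Hba-x -0.61, Hba-a1 -0.71). For Hbb-bh1 the choice of probe also matters: the mean over its probes gave 0.78 (adjusted p = 0.0018).

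Most heme synthesis genes rose. Of 16 tested, 10 were called higher and 1 lower, with 6 and 1 held and a median difference of 0.62 against -0.03 over all genes tested. Alas2 read 10.74, 10.71 and 10.96 at E8.5 and 12.60, 12.53 and 12.81 at E11.5 (1.84 ± 0.16, adjusted p = 1.4e-08). Fech, the ferrochelatase that inserts iron in the last step of the pathway, read 6.98, 7.18 and 7.26 against 9.64, 9.81 and 9.56 (2.53 ± 0.17, adjusted p = 5e-10). Neither gene's stages overlap, and both rose on the first and on the second day. Slc6a9, the glycine transporter that supplies the first step, rose by 1.99 ± 0.15. Slc25a38, a mitochondrial glycine carrier, rose by 1.32 ± 0.16, but its within-slide value was 0.29 and it did not hold. Alas1, the housekeeping form of the first enzyme, moved the other way and fell by 1.18 ± 0.17.

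Iron genes changed in part. Of 15 tested, 6 were called higher and 2 lower, and 4 and 0 held. Slc40a1, the iron exporter ferroportin, read 6.10, 5.99 and 5.81 at E8.5 and 10.03, 9.72 and 9.55 at E11.5 (3.80 ± 0.19, adjusted p = 2.3e-11), and its largest daily step was the second (2.01, adjusted p = 6.3e-06). Tfr2, transferrin receptor 2, rose by 2.48 ± 0.19 and Slc25a37, the mitochondrial iron importer mitoferrin 1, by 1.31 ± 0.15. Tfrc, transferrin receptor 1, the main route of iron uptake in erythroid cells, was not called (0.23 ± 0.15, adjusted p = 0.21). Fth1, ferritin heavy chain, rose by 0.75 ± 0.18 but read -0.10 in the within-slide steps. Pcbp1, an iron chaperone, fell by 0.65 ± 0.16 and Heph, a ferroxidase not detected at E11.5, was at least 1.3-fold lower, and neither held, Pcbp1 reading 0.83 higher against E8.5 replicates 4 to 6.

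The red cell membrane list had the highest median of the lists with 15 or more tested genes (1.56). The list of cell cycle inhibitors and exit genes was close (1.54), and in the within-slide steps its median was the higher (1.07 against 0.98). Of 25 tested, 16 were called higher and 6 lower, with 14 and 4 held. Kel read 7.24, 8.13 and 7.64 at E8.5 and 11.08, 11.14 and 11.13 at E11.5 (3.45 ± 0.18, adjusted p = 3.7e-11), and it rose on each of the 3 days. Stom, the membrane protein stomatin, rose by 3.21 ± 0.18, Icam4, the Landsteiner-Wiener blood group protein, by 3.08 ± 0.16 and Dmtn, which bundles actin in the skeleton, by 1.96 ± 0.14. Slc4a1, the anion exchanger band 3, rose by 0.89 ± 0.21 (adjusted p = 0.0014) and did not hold (0.49 against E8.5 replicates 4 to 6). Of members that fell, neither Epb41l3, a relative of protein 4.1, nor Cd44, an adhesion receptor of immature cells, was detected on any E11.5 array. They were at least 2.86-fold and 1.81-fold lower. Cd44 was detected at E8.5 alone and so passed the filter on dim probes through that stage.

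Of 15 tested red cell enzymes and chaperones, 7 were called higher and 2 lower. Pklr, the red cell pyruvate kinase, rose by 2.95 ± 0.16, Bpgm, which makes the regulator of hemoglobin's oxygen affinity, by 2.71 ± 0.22 and Gclm, the modifier subunit of glutathione synthesis, by 1.83 ± 0.14, and all 3 held. Car1, carbonic anhydrase 1, was not detected at E11.5 and was at least 4.21-fold lower. Adk, adenosine kinase, fell by 0.47 ± 0.16 and read 0.03 against E8.5 replicates 4 to 6. Acp1, another member called higher, belongs to a set of 114 genes with one shared profile, described further on.

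More erythroid transcription factors rose than fell. Of 21 tested, 12 were called higher and 4 lower, with 7 and 3 held. Klf1, which activates adult beta globin and many membrane genes, read 10.68, 11.41 and 10.89 at E8.5 and 11.58, 11.47 and 11.82 at E11.5 (0.63 ± 0.18, adjusted p = 0.0059). Nfe2, the globin-locus factor, read 9.21, 9.14 and 9.17 against 10.30, 10.24 and 10.67 (1.23 ± 0.18, adjusted p = 1.3e-05). The Klf1 change did not hold, its within-slide sum of 0.59 not being called, while that of Nfe2 held. Gata1, the master regulator of the lineage, rose by 0.67 ± 0.15 and did not hold. Tal1, its partner, rose by 1.23 ± 0.17, Lyl1, a close relative of Tal1, by 1.27 ± 0.14, and Zbtb7a, a repressor of fetal globin in human cells, by 2.22 ± 0.16. Lmo2, the bridge of the Tal1 complex (-1.23 ± 0.13), and Sox6, a repressor of embryonic globin in definitive cells (-1.32 ± 0.22), fell. Hmbox1 (2.35 ± 0.15) belongs to the same shared profile as Acp1. Bcl11a did not pass the filter on dim probes.

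Signalling through the erythropoietin receptor was represented by 18 tested genes, of which 11 were called higher and 3 lower, with 8 and 2 held. Epor, the receptor, rose by 1.13 ± 0.16 (adjusted p = 8.3e-06) but its within-slide sum of 0.53 was not called. The feedback inhibitors Socs3 (2.61 ± 0.21) and Socs2 (1.79 ± 0.17), targets of STAT5, rose. Bcl2l1, the survival factor BCL-XL, read 4.61, 4.92 and 4.99 at E8.5 and 7.42, 7.40 and 7.14 at E11.5 (2.48 ± 0.18, adjusted p = 1.6e-09). It rose on each day, most on the third, and the stages do not overlap. In the BCL2 family, 4 of 14 tested genes were called higher and 2 lower; Bak1, which promotes death, rose by 1.25 ± 0.22 and Bid, which links death receptors to mitochondria, fell by 2.12 ± 0.17. Osm (2.02 ± 0.19) belongs to the shared profile.

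Most called genes of blood progenitors fell. Of 14 tested, 2 were called higher and 6 lower, and 2 and 5 held. Kit, the stem cell factor receptor, read 6.28, 6.20 and 5.51 at E8.5 and 4.27, 4.19 and 4.19 at E11.5, where it was not detected, and was at least 2.63-fold lower (adjusted p = 2.9e-08). Its whole fall was on the first day (-1.72, adjusted p = 6.1e-07), and it read 4.24 to 4.33 at E9.5. Kit was detected on every E8.5 array and on no later one, so it passed the filter on dim probes through E8.5 alone. Its p-values are therefore no separate support for the fall. Gata2 and Runx1, which specify blood progenitors, were likewise undetected at E11.5 and at least 2.05-fold and 1.64-fold lower. The members called higher were Ikzf1 (0.70 ± 0.23) and Kdr (1.77 ± 0.17), the VEGF receptor, which defines the shared profile. Myb was not called (-0.16 ± 0.13, adjusted p = 0.30).

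**Figure D2:**
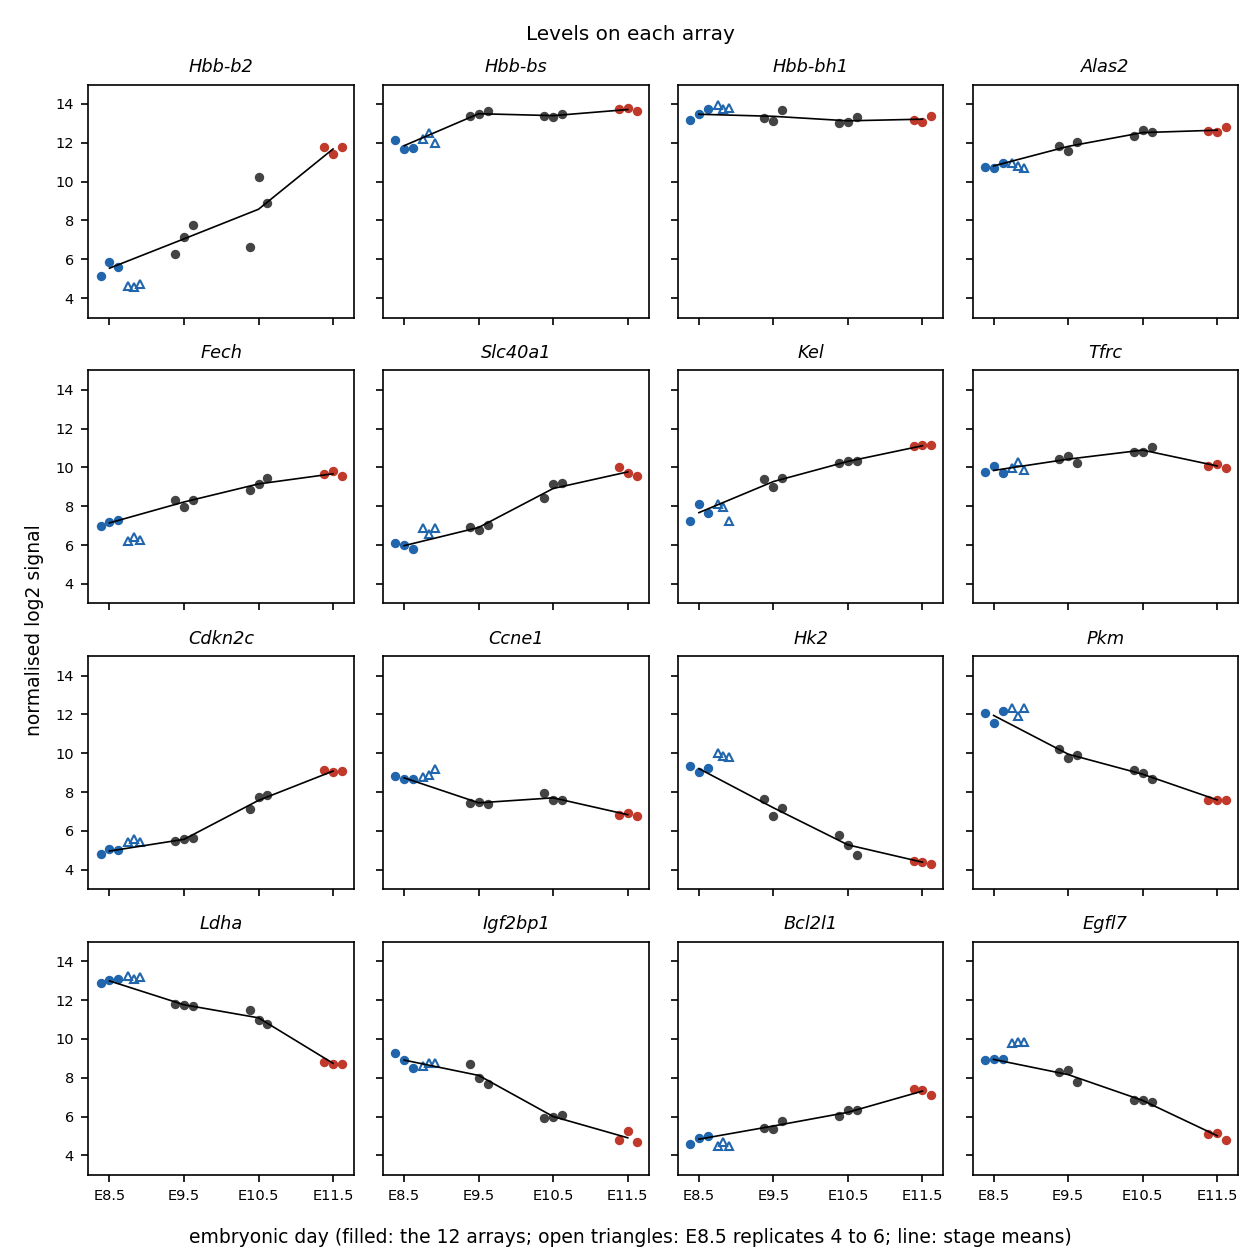
Normalised log2 level on each array for 16 genes, by embryonic day, with filled points for the 12 arrays of slides 2 and 4, open triangles for E8.5 replicates 4 to 6, and lines through the stage means. Slc40a1 and Cdkn2c rise and Pkm and Ldha fall at every step, whereas the Hbb-bh1 points at E8.5 and E11.5 overlap.

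Most tested inhibitors of the cell cycle and genes of cell cycle exit rose. Of 22 tested genes of the inhibitor and exit list, 16 were called higher and 0 lower, 12 held, and the median was 1.54. Cdkn2c, the CDK4/6 inhibitor p18, read 4.80, 5.06 and 5.02 at E8.5 and 9.14, 9.01 and 9.09 at E11.5 (4.12 ± 0.18, adjusted p = 3.8e-12). Its rise came on the second (2.01, adjusted p = 4.7e-06) and the third day (1.51, adjusted p = 8.5e-06). Cdkn2d, the related inhibitor p19, rose by 2.57 ± 0.17. Rb1, the retinoblastoma protein that restrains E2F, rose by 2.89 ± 0.20. Ypel5, of a family named for yippee in Drosophila, rose by 3.56 ± 0.16, and Ypel4, detected on no E8.5 array, was at least 12.8-fold higher. Cdkn1b did not pass the filter, and Rbl1, which was called higher and held, belongs to the shared profile. On the third day alone 12 of the 22 were called higher, against 3 on the first and 8 on the second. Over all genes the shares called higher were 7.65%, 6.05% and 8.46% on the 3 days.

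Genes that drive the cycle moved in both directions. Of 16 tested cyclins, kinases and their activators, 6 were called higher and 7 lower. Ccne1, cyclin E1, read 8.85, 8.65 and 8.69 at E8.5 and 6.82, 6.91 and 6.77 at E11.5 (-1.90 ± 0.14, adjusted p = 2.2e-09), falling on the first and on the third day. Cdc25a, the phosphatase that activates CDK2 (-2.04 ± 0.16), Cdk4, the kinase partner of D cyclins (-1.43 ± 0.15), and Ccnd2, cyclin D2 (-1.40 ± 0.33), fell, the last without holding. Ccnd3, cyclin D3, the D cyclin known for setting the number of divisions of erythroid cells, rose by 1.57 ± 0.17 and held. Cdk6 was near background at both ends, detected on 0 E8.5 arrays and 2 E11.5 arrays. Cks2 (2.43 ± 0.19) belongs to the shared profile.

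Many DNA replication genes fell, while more mitosis genes rose than fell. Of 36 tested replication genes, 1 was called higher and 18 lower, with 0 and 12 held and a median of -0.41. The largest falls were Pold2 (-1.44 ± 0.16), Rfc4 (-1.10 ± 0.14) and Pold1 (-1.08 ± 0.14), subunits of the replicative polymerase delta and its clamp loader, and Orc6, of the origin recognition complex (-0.98 ± 0.14). Tyms, thymidylate synthase, rose by 0.90 ± 0.14 and did not hold. The replication genes did not fall steadily: 12 fell on the first day, 6 rose and 0 fell on the second, and 14 fell on the third. The second step crosses slides and changes from digested embryo to blood, and its counts depend strongly on single arrays.

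Of 34 tested mitosis genes, 14 were called higher and 3 lower at E11.5. Nusap1, a spindle protein, rose by 1.26 ± 0.15, Foxm1, a transcription factor of mitotic genes, by 1.12 ± 0.16, and Anln, the cytokinesis protein anillin, by 0.88 ± 0.14. None of these held, and 4 of the 14 did; the list's median was 0.27 for the net difference and -0.07 for the within-slide steps. Cdc20, an activator of the anaphase-promoting complex, fell by 0.60 ± 0.15 and held. Mki67 had no tested probe.

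Of 10 tested MYC and E2F factors, 3 were called higher and 4 lower, and their median changed sign with the E8.5 set, from -0.23 to 0.19 against E8.5 replicates 4 to 6. E2f2, the E2F needed in terminal erythroid divisions, rose by 1.77 ± 0.19 and E2f3 fell by 1.08 ± 0.17, and of these the fall held. Myc was not called (-0.27 ± 0.19, adjusted p = 0.25).

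Ribosome assembly fell almost as a block. Of 38 tested genes of the list, 0 were called higher and 37 lower, 32 held, and the median was -1.63. Rrp1b, a nucleolar protein, read 8.83, 8.80 and 9.10 at E8.5 and 5.60, 4.86 and 5.62 at E11.5 (-3.55 ± 0.20, adjusted p = 9e-11). Rrp9, which binds the U3 small nucleolar RNA (-2.96 ± 0.17), Utp4 (-2.61 ± 0.15) and Bop1, of the large-subunit processing complex (-2.53 ± 0.14), fell too. The Rrp1b ranges lie far apart, and its largest step was the last (-1.65, adjusted p = 1.3e-05). The third day carried most of the calls: 35 of the 38 fell then, against 15 on the first day and 13 on the second, where 17.3%, 11.9% and 3.35% of all genes fell.

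Fewer genes for the ribosome's own proteins were called. Of 27 tested cytosolic ribosomal protein genes, 0 were called higher and 6 lower (22.2%, under the 31% of all genes), with a median of -0.14. Those that fell and held include Rps24 (-1.89 ± 0.18), Rpl38 (-1.79 ± 0.16) and Rplp0 (-1.75 ± 0.15), and Rps19, mutated in Diamond-Blackfan anemia in humans, was undetected at E11.5 and at least 4.48-fold lower. These families have many processed copies in the genome, so the source of a single probe's signal is uncertain.

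Most translation factors fell: of 30 tested, 1 was called higher and 22 lower, with 1 and 12 held. They included Eif4ebp1, the repressor of cap-dependent initiation (-2.60 ± 0.22), Eif1a, of start-codon scanning (-2.05 ± 0.17), and Gspt1, a release factor (-1.74 ± 0.16). The exception was Eif2ak1, the heme-regulated kinase that matches globin synthesis to heme, which rose by 1.16 ± 0.15 and held. Of 20 tested genes of the integrated stress response, 4 were called higher and 8 lower, among the latter the glycyl-tRNA synthetase Gars (-1.84 ± 0.17).

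Most protein-folding genes fell too. Of 22 tested heat shock proteins and cochaperones, 2 were called higher and 16 lower, and 0 and 13 held. Hspd1, the mitochondrial chaperonin HSP60, read 11.47, 11.54 and 11.44 at E8.5 and 7.96, 8.35 and 8.07 at E11.5 (-3.36 ± 0.20, adjusted p = 1.5e-10). The E8.5 arrays are close to each other and lie above all E11.5 arrays. Hspa9, mortalin of the mitochondrial matrix (-2.15 ± 0.15), and Hsph1, a cytosolic exchange factor (-2.37 ± 0.18), also fell. Bag1 (0.60 ± 0.17) rose and did not hold.

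**Figure D3:**
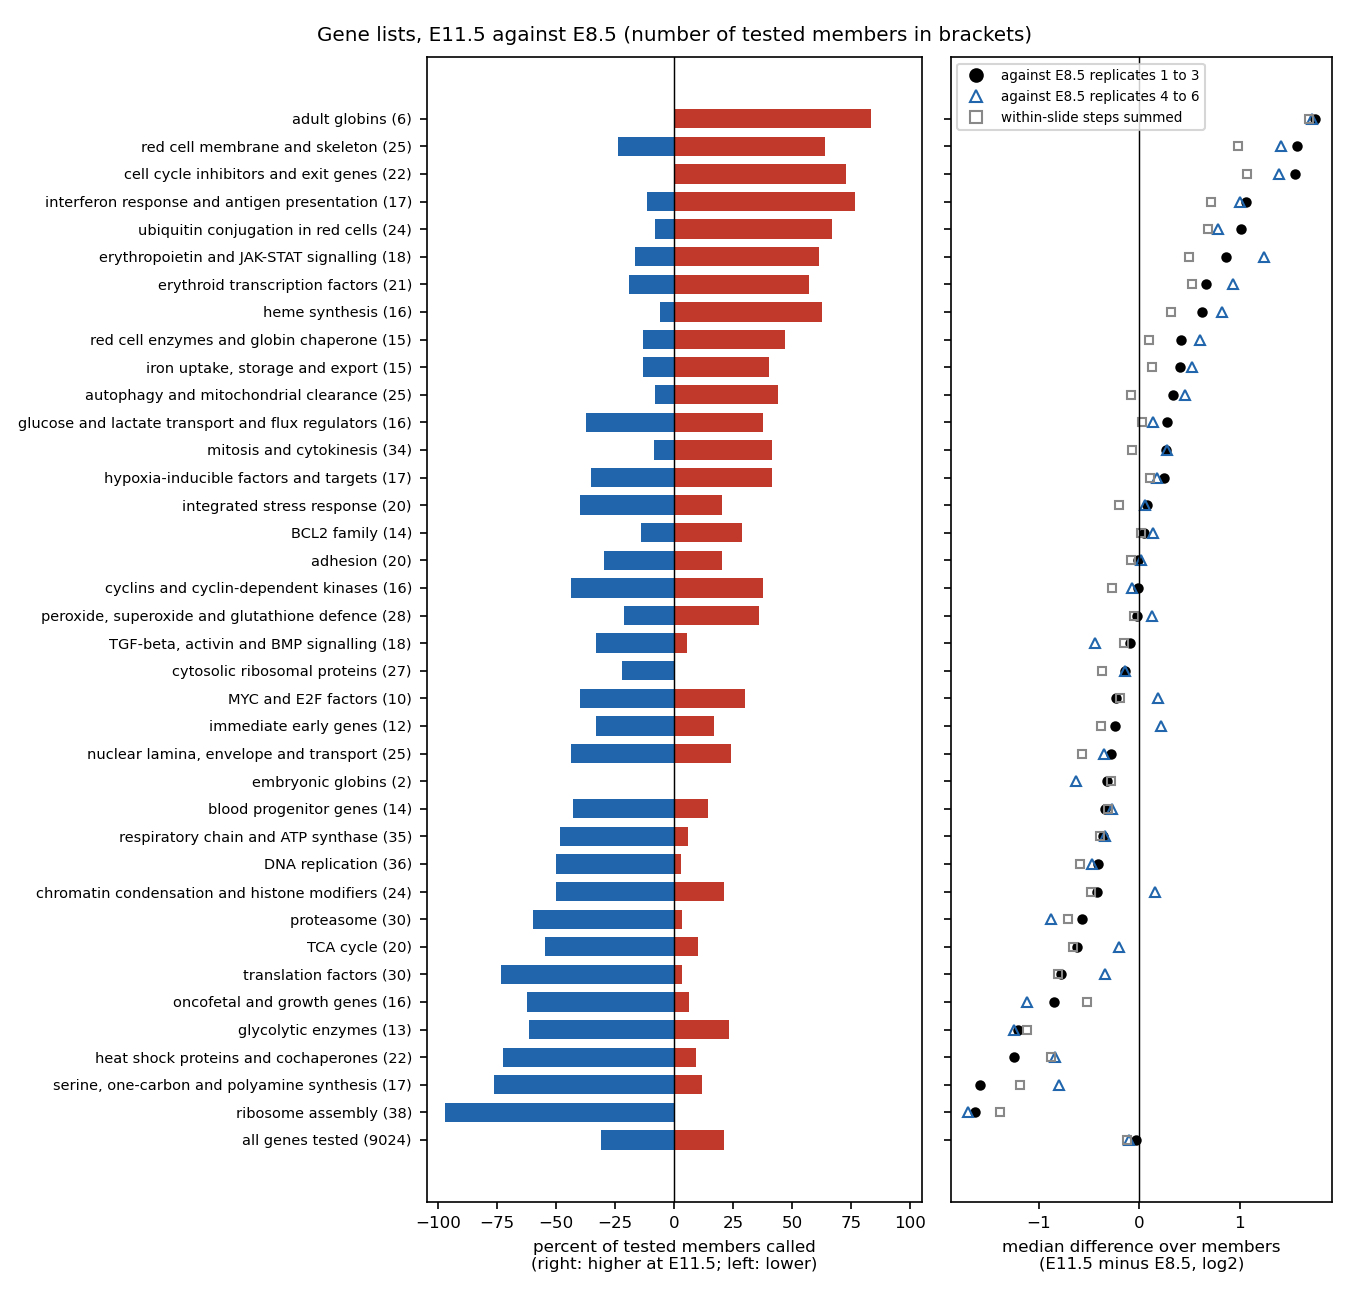
Left, percent of tested members of each list called higher (right) or lower (left) at E11.5; right, median log2 difference over members against E8.5 replicates 1 to 3, against replicates 4 to 6 and over the within-slide steps, with the number of tested members in brackets. The ribosome assembly list has 97.4% of its members lower, against 31% of all genes tested.

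Most glycolytic enzymes fell, while red cell forms of the pathway rose. Of 13 tested glycolytic enzymes, 3 were called higher and 8 lower, with 2 and 8 held. Hk2 read 9.34, 9.06 and 9.22 at E8.5 and 4.47, 4.39 and 4.30 at E11.5, where no array detected it, and was at least 24.3-fold lower (adjusted p = 1.5e-11). Pkm, the muscle-type pyruvate kinase of growing cells, read 12.08, 11.58 and 12.18 against 7.59, 7.60 and 7.59 (-4.35 ± 0.17, adjusted p = 1.7e-12). Ldha, lactate dehydrogenase A, read 12.86, 13.03 and 13.09 against 8.82, 8.71 and 8.72 (-4.24 ± 0.17, adjusted p = 1.7e-12). All 3 fell on each day, and no E8.5 value meets an E11.5 value. The members that rose and held were the red cell forms Pklr and Bpgm given above.

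Of 16 tested genes of glucose and lactate transport and flux, 6 were called higher and 6 lower. Slc2a3, the transporter GLUT3, fell by 1.70 ± 0.27 and Slc2a4, GLUT4, rose by 1.32 ± 0.16, both holding. Slc2a1, GLUT1, fell by 0.82 ± 0.14 against E8.5 replicates 1 to 3 but read 0.18 higher against replicates 4 to 6. Taldo1, transaldolase of the pentose phosphate pathway, rose by 2.21 ± 0.16. Hypoxia-inducible factors and targets split 7 higher and 6 lower of 17; Hif3a, an inhibitory family member, rose by 2.12 ± 0.21 and Kdm3a, a histone demethylase, by 1.25 ± 0.15, while Egln3 (2.31 ± 0.18) belongs to the shared profile.

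In mitochondria, 11 of 20 tested TCA cycle genes were called lower and 2 higher, and 17 of 35 tested respiratory chain genes lower and 2 higher. Idh2, isocitrate dehydrogenase (-1.67 ± 0.18), Pdha1, of the pyruvate dehydrogenase complex (-1.25 ± 0.16), Ndufb5, of complex I (-1.71 ± 0.18), and Cox5a, of complex IV (-1.39 ± 0.14), fell and held. Ogdh, which makes the succinyl-CoA used for heme, rose by 1.30 ± 0.17 and did not hold. None of the rises in either list held.

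Most genes for the synthesis of serine, nucleotides and polyamines fell. Of 17 tested genes, 2 were called higher and 13 lower, with 0 and 10 held and a median of -1.58. Psat1, of serine synthesis, read 10.09, 9.73 and 9.92 at E8.5 and 6.26, 5.97 and 6.12 at E11.5 (-3.79 ± 0.17, adjusted p = 7.1e-12), most of it on the third day (-2.41, adjusted p = 1.1e-07). Srm, spermidine synthase (-3.12 ± 0.16), and Gart, of purine synthesis (-2.31 ± 0.16), fell, and Cad, which starts pyrimidine synthesis, was undetected at E11.5 and at least 6.22-fold lower.

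Most ubiquitin-conjugating genes known from maturing red cells rose, while most tested proteasome genes fell. Of 24 tested ubiquitin genes, 16 were called higher and 2 lower, with 13 and 1 held. Mkrn1, a ubiquitin ligase, read 5.16, 5.23 and 5.20 at E8.5 and 8.61, 8.25 and 8.11 at E11.5 (3.13 ± 0.17, adjusted p = 6e-11). Rnf123 rose by 2.66 ± 0.18, Ube2l6 by 2.65 ± 0.21 and Trim10, a ligase of erythroid cells, by 2.23 ± 0.16. On the first day 6 list members rose, and on the third 13. Of 30 tested proteasome genes, 1 was called higher and 18 lower, 13 of them held, and 15 fell on the third day. They included Psmb1, of the core (-1.77 ± 0.14), and Psmd7, of the regulatory cap (-1.48 ± 0.14). Psme4, an activator cap, rose by 0.74 ± 0.15 and did not hold.

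Autophagy genes rose in part. Of 25 tested, 11 were called higher and 2 lower, 4 of the rises held, and the median was 0.33 for the net difference and -0.09 within slides. Atg4d, a protease of the conjugation system, rose by 2.03 ± 0.17, Pink1, the mitophagy kinase, by 1.63 ± 0.19, and Gabarap by 1.36 ± 0.15, and these held. Bnip3l, the receptor that clears mitochondria from red cells, rose by 0.47 ± 0.14 (adjusted p = 0.0092) and did not hold (-0.14 within slides). Fundc1, another mitophagy receptor, fell by 0.77 ± 0.15 and held.

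Most interferon-response and antigen-presentation genes rose. Of 17 tested, 13 were called higher and 2 lower, with 7 and 2 held. Igtp, an interferon-inducible GTPase outside the list and among the 12 largest rises, read 4.55, 4.68 and 4.50 at E8.5 and 9.72, 10.21 and 9.33 at E11.5 (5.18 ± 0.18, adjusted p = 9.6e-13), rising on each day. Rsad2, the antiviral protein viperin, read 4.27, 4.28 and 4.22 at E8.5, where no array detected it, and 7.21, 9.75 and 6.54 at E11.5, and was at least 9.98-fold higher (adjusted p = 3.6e-06). It rose on the third day (3.34, adjusted p = 5.7e-05) and on no earlier day, and the E11.5 embryos differ widely from each other. Detection on the 3 E11.5 arrays was enough for Rsad2 to pass the filter on dim probes. Its p-values are therefore no separate support for the rise. Psme2, of the immunoproteasome activator, rose by 1.87 ± 0.18. Ifitm2 and Ifitm1, interferon-induced membrane proteins expressed in early embryonic cells, went the other way, with differences of -4.33 ± 0.24 and -2.78 ± 0.22.

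Defence against oxidation changed in both directions, with 10 higher and 6 lower of 28 tested. Nqo1, a quinone reductase and NRF2 target, was undetected at E8.5 and at least 6.31-fold higher, Srxn1, sulfiredoxin, rose by 1.74 ± 0.18, and Gsta4, a glutathione transferase, fell by 3.31 ± 0.17.

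Nuclear genes split as well. Of 25 tested lamina, envelope and transport genes, 6 were called higher (24%, near the 21.2% of all genes tested) and 11 lower (44%, against 31%). Lmna, lamin A/C, read between 6.92 and 7.03 at E8.5 and 9.72, 10.01 and 9.62 at E11.5 (2.80 ± 0.17, adjusted p = 1.8e-10), rising on every day. Sun2, of the bridge from nucleus to cytoskeleton, rose by 1.97 ± 0.19, while Nup43, of the nuclear pore scaffold, fell by 1.49 ± 0.14. The probes of Nup98, of the pore's inner face, disagreed: its brighter probe was called higher (2.01 ± 0.20) and its other probe lower (-0.53), so no direction is given for the gene. Xpo7, a nuclear exporter needed for erythroid chromatin condensation, rose by 0.88 ± 0.19 and did not hold. Of 24 tested chromatin genes, 5 were called higher (20.8%, again near the share of all genes) and 12 lower (50%). Dnmt3b, a de novo DNA methyltransferase (-3.86 ± 0.24), and Hmgn1, which loosens chromatin (-1.95 ± 0.16), fell. The median of this list was -0.42 but 0.16 against E8.5 replicates 4 to 6. Kat2a, called higher at 2.03 ± 0.18 from its brighter probe, belongs to the shared profile and read -0.03 as the mean of its probes.

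Most genes of early embryonic growth fell. Of 16 tested oncofetal and growth genes, 1 was called higher and 10 lower, with 1 and 8 held. Igf2bp1, an RNA-binding protein of fetal cells, read 9.28, 8.94 and 8.53 at E8.5 and 4.78, 5.27 and 4.69 at E11.5 (-4.00 ± 0.24, adjusted p = 1.5e-10). Igf2, the fetal growth factor, fell by 3.03 ± 0.26, and Lin28b, which blocks let-7 microRNAs, was undetected at E11.5 and at least 2.31-fold lower. Peg3, an imprinted gene, rose by 1.53 ± 0.22. Visceral endoderm markers fell over the same interval, as given above.

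Signalling receptors and adhesion proteins were called lower about as often as all genes tested (31%). Of 18 tested TGF-beta, activin and BMP genes, 1 was called higher and 6 lower (33.3%), with a median of -0.10. Acvr2b, an activin receptor (-3.63 ± 0.22), Tgfbr3, the co-receptor betaglycan (-3.15 ± 0.31), and Tgfbr1, the signalling receptor (-1.91 ± 0.18), fell and held. Of 20 tested adhesion genes, 4 were called higher and 6 lower, with a median of -0.01. Emb, embigin, was undetected at E11.5 and at least 3.31-fold lower, and Itga4, an integrin of erythroblastic islands, was not called (0.11 ± 0.15, adjusted p = 0.57). Jam3 (2.11 ± 0.20) belongs to the shared profile. Of 12 tested immediate early genes, known to respond to cell handling, 2 were called higher and 4 lower; Egr1 was undetected at E11.5 and at least 6.52-fold lower and Jun at least 2.08-fold lower, and 7 of the 12 fell on the first day, between cells of digested embryos.

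The largest changes included genes of no list. Pdzk1ip1, a small membrane protein, read 4.78, 4.75 and 4.93 at E8.5 and 10.71, 10.69 and 10.35 at E11.5 (5.76 ± 0.22, adjusted p = 1.7e-12). Ddah1, which degrades an inhibitor of nitric oxide synthesis, read 10.51, 9.84 and 9.99 against 4.84, 5.03 and 4.33 (-5.38 ± 0.36, adjusted p = 7e-10) and had reached this level by E10.5. The other rises among the 12 largest were Cyp4b1-ps2, a pseudogene (4.41 ± 0.24), Ctse, the protease cathepsin E (4.03 ± 0.18), Tspo, a mitochondrial membrane protein that binds porphyrins (3.70 ± 0.15), and Endod1 (3.68 ± 0.18). The other falls were Dctd, deoxycytidylate deaminase (-4.07 ± 0.19), Egfl7, of the endothelial marker list (-3.93 ± 0.17), 2010204K13Rik and Slc11a1, a metal transporter of phagocytic vesicles (-3.81 ± 0.17). All 24 genes of both directions held.

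Detection was compared too, which does not rest on the fit: 97 genes (1.07%) were detected on all E11.5 arrays and no E8.5 array, and 507 (5.62%) the other way round. The brightest of the former were Ypel4, Rsad2 and Dnase2a, the nuclease that digests expelled nuclei in macrophages, which was at least 6.98-fold higher. After Nqo1, Bbs7, of the cilium complex BBSome, was at least 5.63-fold and BC021767 at least 4.84-fold higher. Besides Hk2, the brightest of the 507 were Tro, trophinin (at least 10.4-fold lower), Plxnd1, a semaphorin receptor (at least 9.3-fold), Gja1, connexin 43 (at least 8.66-fold), Rhobtb3 (at least 8.28-fold) and Fkbp11 (at least 7.67-fold). E9.5 and E10.5 were left out of this comparison, and Hk2 was detected on all arrays of both.

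By day, 1766 genes (19.6%) were called on the first, 848 (9.4%) on the second and 2321 (25.7%) on the third. Leaving out single arrays moved the second day's count between 320 and 1455 and brought the third day's down to 1517 without E10.5 replicate 1. The third day's change was above the first day's in 434 genes (4.81%) and below it in 582 (6.45%). In 58 genes (0.643%) both days ran in opposite directions. By the middle stages, 55 (0.609%) were higher at E9.5 and E10.5 than at both ends, and 36 (0.399%) lower. Krt15, a keratin, read 4.40, 5.34 and 4.26 at E8.5, 7.79, 8.27 and 8.16 at E9.5, and 6.70, 7.07 and 7.42 at E11.5. Txnip, which restrains glucose uptake, read 8.33, 7.32 and 7.96 at E8.5, 5.38, 5.51 and 5.18 at E9.5, and 6.54, 6.70 and 6.63 at E11.5. Krt15 thus peaked and Txnip was lowest between both ends, and the second step, which crosses slides, was not called for either.

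**Figure D4:**
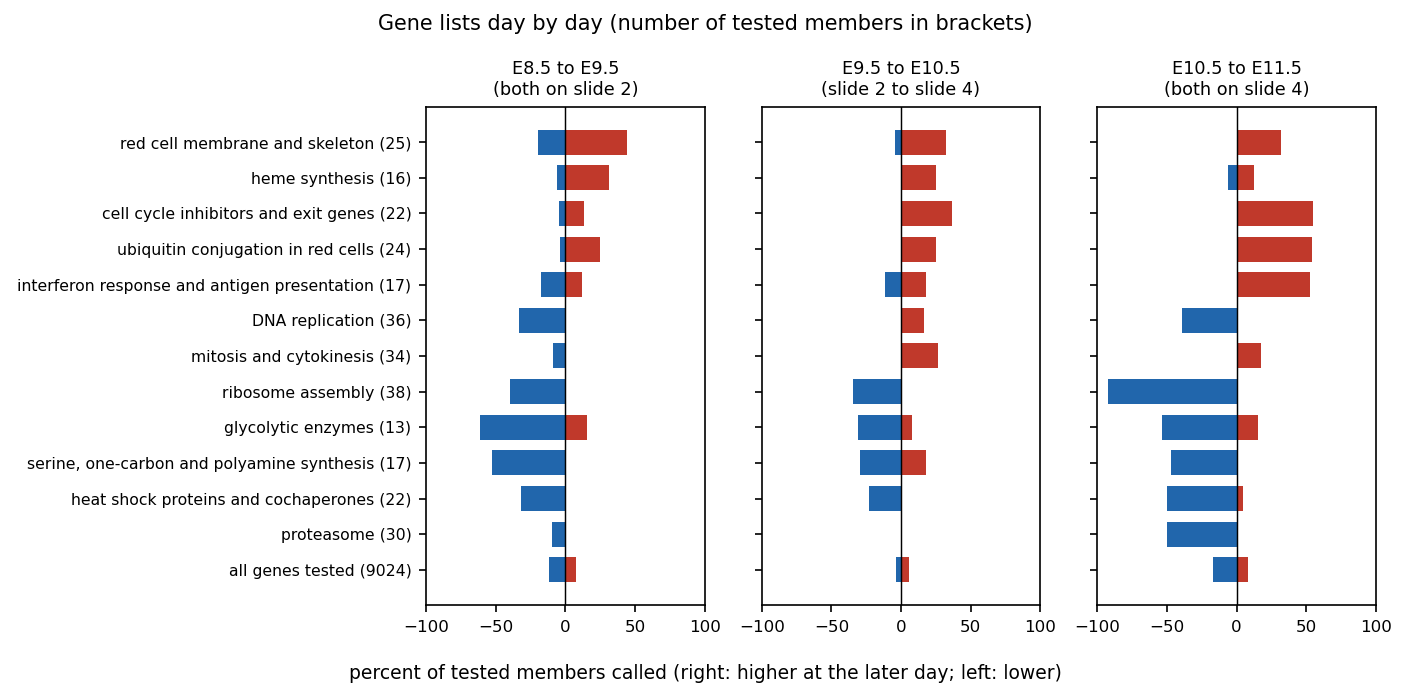
Percent of tested members of 12 lists called higher (right) or lower (left) on each day, with all genes tested in the last row. The ribosome assembly list falls most on the third day, and replication genes are called lower on the first day and on the third, and higher on the second.

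Markers of other cells were examined for the whole lists, as summed linear signal over 3 arrays per stage. Macrophage and leukocyte markers (25 genes) summed to 112 to 190 at E8.5 and 96.2 to 119 at E11.5, with Ptprc, Adgre1 and Lyz2 on no array at either end. Laptm5, a lysosomal protein of blood cells on that list, was detected on all arrays of both ends, read 6.31, 6.96 and 5.72 at E8.5 and 5.01, 5.22 and 4.72 at E11.5, and fell by 1.34 ± 0.29 and held, 1 of 3 tested members. Megakaryocyte and platelet markers (18 genes) summed to 2770 to 3150 and 1270 to 1640, and of 13 tested 4 were called higher and 2 lower. Definitive progenitor and fetal liver markers (13 genes) summed to 60.5 to 220 and 53.1 to 73.4, Bcl11a, Flt3 and Ptprc being on no array. Neural markers (17 genes) summed to 89.8 to 121 at E8.5 and to 218 to 273 at E11.5, without overlap, and 2 of 4 tested rose and held: Tubb3, a neuronal tubulin (1.58 ± 0.23), and Stmn2, a stathmin (0.96 ± 0.19), while 11 of the 17 were on no E11.5 array. Cardiac markers (18 genes) summed to 110 to 164 and 58.8 to 111. Epiblast and early mesoderm markers (22 genes) summed to 1950 to 2820 and 4160 to 5240, led by Tal1, itself an erythroid gene, with Pou5f1 on no array at either end. Of 10 tested, 1 was called higher and 3 lower, the latter being Dnmt3b (-3.86 ± 0.24), Dppa4 (-1.20 ± 0.19) and Etv2, which was detected on 3 E8.5 arrays and 0 E11.5 arrays and was at least 1.4-fold lower without holding.

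Endothelial (25 genes) and mesenchyme (26 genes) sums depend on the genes of the shared profile. Endothelial markers summed to 4760 to 5680 at E8.5 and 5220 to 5750 at E11.5 with these genes, and to 3790 to 4630 and 1120 to 1190 without Kdr, Emcn and Flt4. Mesenchyme markers summed to 1010 to 1290 and 3650 to 3960 with Prrx1, and to 336 to 637 and 348 to 419 without it. Of 12 tested endothelial genes, 4 were called higher and 4 lower. Stab1, a scavenger receptor and the brightest member at E8.5, read 11.97, 11.76 and 11.63 at E8.5 and 9.83, 9.65 and 9.69 at E11.5, and Egfl7 fell by 3.93 ± 0.17, both being on all arrays of both ends. Vwf, von Willebrand factor, which is no member of the shared profile, rose by 2.43 ± 0.21 and held. Tie1 was on no array at either end. The part of other cells in the changes reported here was not tested. The 114 genes of the shared profile make up 5.95% of the genes called higher, and the net count without them was 4584. Both values depend on the limit of closeness to Kdr that defines the set, given further on.

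**Figure D5:**
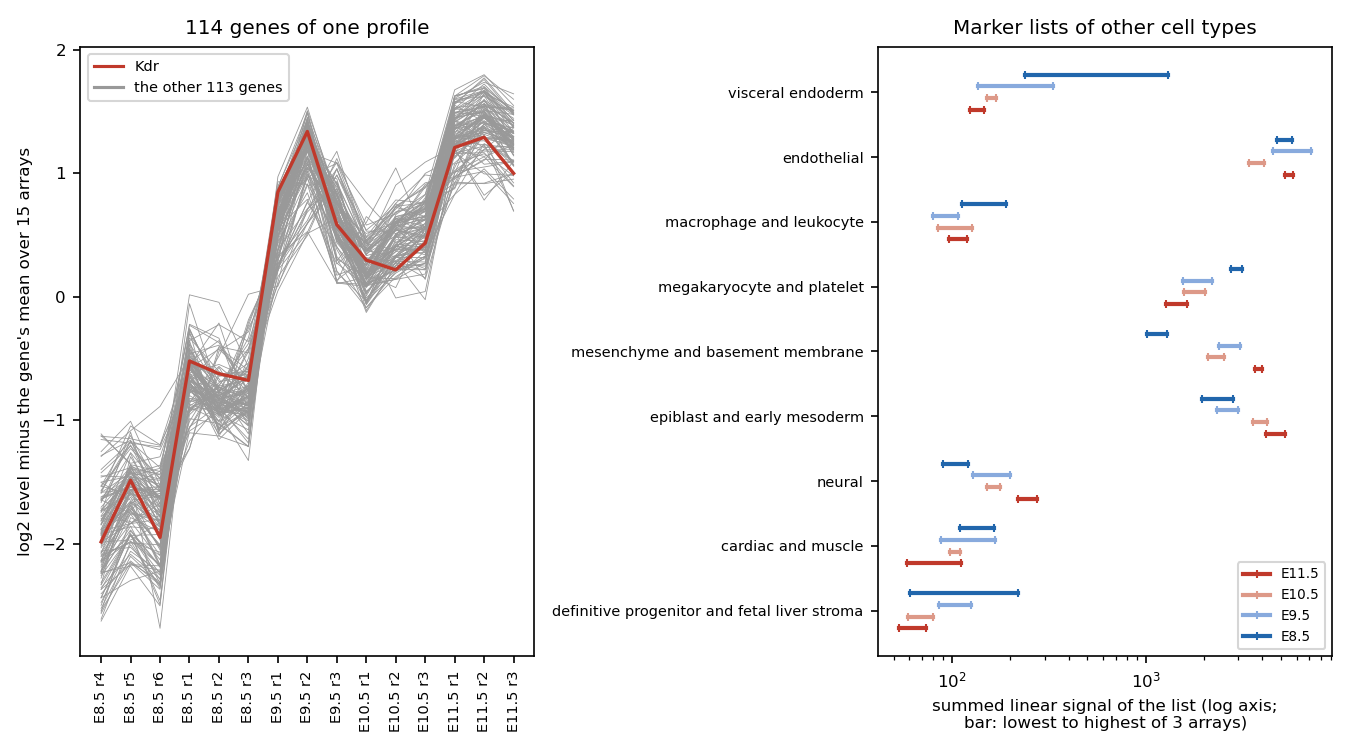
Left, level on each of 15 arrays minus the gene's own mean (log2) for the 114 genes whose profile lies close to that of Kdr; right, summed linear signal of each marker list on a log axis, bars running from the lowest to the highest of 3 arrays per stage. The 114 lines follow one course, and the visceral endoderm sum falls from 237 to 1300 at E8.5 to 124 to 146 at E11.5.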

How the data were processed

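Total RNA was amplified for 1 round, biotin-labelled and hybridised, each sample to its own Illumina array. The authors deposited a mean intensity per probe and array, which the file headers call non-normalized, although the values of slides 2 and 4 share 1 distribution. A detection p-value per probe and array was deposited with them, per the file headers. The authors' processed values, on a scale like log2 whose transform is not given in the sources used here, were deposited too and served as an alternative. Scanner software and background setting are not given in the sources used here.

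Intensities were background-corrected from the detection p-values, offset by 16, quantile-normalised and put on the log2 scale with neqc of limma 3.58.1 (R 4.3.3, data.table, version 1.17.8; figures with Python 3.11.15 and matplotlib 3.10.9). Of 45719 probes, 29490 carry 1 gene symbol, 8 several and 16221 none; the latter kinds are not named. Probes with a detection p under 0.05 on at least 3 of 12 arrays were kept, and the brightest probe stood for its gene. A gene detected at 1 stage only could pass this filter through that stage alone. The counts of called genes include such genes. Of 2580 genes with several probes, 115 have probes called in opposite directions. Stages were compared with lmFit and eBayes (intensity trend), with p-values adjusted after Benjamini-Hochberg over 9024 genes. Where no array of a stage detected a gene, the fold is a bound against the lowest signal above background on those arrays. The number of arrays limits the precision of every value.

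Replicate numbers were taken to name samples and not to pair them. Deviations of same-numbered E8.5 and E11.5 arrays correlated at 0.088, 0.072 and 0.071. Those of differently numbered arrays correlated at -0.11 to 0.013, so the same-numbered values were the highest. What same-numbered arrays share was not tested, and counts with the replicate number as a block are given below. The description of E9.5 replicate 1 says replicate 2, and those of E8.5 replicates 4 to 6 say 1 to 3; titles were used, and the deviations of the latter pairs correlated at -0.26, -0.02 and -0.15, so all were counted as separate samples. The 46 gene lists, the core genes and the comparison itself were chosen with earlier results of these data known. Genes are named by 1 rule: the core genes, the 12 largest changes each way, up to 4 members per list by smallest p and up to 2 against their list, the 6 strongest middle peaks and troughs each, and the 6 brightest genes detected at 1 end; the text gives part of these. The set of genes with the Kdr profile was chosen after values were seen. Scripts were tested on simulated data. Sequences are from RefSeq's promoter entries. Other scalings, filters, probe rules, array sets and blocks were tried as alternatives.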

Additional observations from a re-analysis of the deposited data

Results flagged for a closer look

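For 8 genes the third day's change (E10.5 to E11.5) ran opposite to the first day's (E8.5 to E9.5), and the difference between both days was called in the limma fit; both days lie within 1 slide each. They are those with the largest such difference among 58 genes (0.643% of those tested). Krt15, a keratin, rose by 3.40 ± 0.24 on the first day and fell by 0.92 ± 0.24 on the third, a difference of -4.33 (adjusted p = 7.03e-07). Tgm2, a transglutaminase that crosslinks proteins, rose by 2.18 ± 0.18 and fell by 0.68 ± 0.18, a difference of -2.87 (adjusted p = 1.33e-06). Bdh1, a ketone body enzyme, gave -2.64 (adjusted p = 0.000201) and Angptl4, an inhibitor of lipoprotein lipase, -2.63 (adjusted p = 4.22e-06). These genes were higher at E9.5 than at E8.5 and lower at E11.5 than at E10.5.

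The other genes fell first and rose later. Txnip, which restrains glucose uptake, fell by 2.51 ± 0.22 and rose by 1.12 ± 0.22, a difference of 3.63 (adjusted p = 1.29e-06). Arrdc3, an arrestin relative of Txnip, gave 2.65 (adjusted p = 1.03e-05). H1f2, a linker histone, gave 2.97 (adjusted p = 1.03e-05) and Spef1, a microtubule-bundling protein, 2.93 (adjusted p = 1.03e-05). For H1f2 and Arrdc3 the net direction from E8.5 to E11.5 depended on which E8.5 arrays were used.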

How the results depend on the processing

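The net count stood at 4708 genes. Tested on every probe alone it was 7827 of 16640 probes (3398 higher, 4429 lower), and against a 1.5-fold change 1972 (851 higher, 1121 lower). With all 18 arrays of 1 round and slide as a random block (within-slide correlation 0.31) it was 3119, with 1220 higher. Under the other alternatives the counts of called genes, net and daily, stayed within 1.5 times, apart from single arrays left out. The authors' processed values gave 4682 and the genes outside the profile shared with Kdr 4584 for the net comparison. With the replicate number as a block the counts were 4774 net, 1849, 1000 and 2474 by day. Leaving out 1 array gave 4246 to 4870 net (1711 to 2116 higher, 2519 to 2754 lower), 2470 to 3324 in the within-slide steps (857 to 1140 and 1613 to 2184), and 1245 to 1942 on the first day (555 to 752 and 667 to 1190), the lower counts being 690 without E8.5 replicate 3 and 667 without E9.5 replicate 2. The second day is the least firm, at 320 to 1455 (233 to 858 and 87 to 597): 514, 461 and 1455 without E9.5 replicates 1, 2 and 3, and 351 and 320 without E10.5 replicates 2 and 3. The third day gave 1517 to 2179 (492 to 725 and 1025 to 1454), the lowest without E10.5 replicate 1. The E8.5 sets differed in 3083 to 3432 genes (1885 to 2207 and 1161 to 1268), and under median scaling 3784 were higher in replicates 4 to 6, with the median of all genes at 0.30. Of 230 called genes among the 241 that the rule names, 187 were called under every setting that tested them and 224 kept their direction. There were 22 settings, and the filter of detection on at least 6 arrays left 222 of the 241 genes to test. Direction turned against E8.5 replicates 4 to 6 for H1f2 (1.13), Arrdc3 (1.09), Pcbp1 (0.83), Adk (0.0324), Slc2a1 (0.18) and Atg3 (0.63), with all 18 arrays for Arrdc3 (0.0696) and Pcbp1 (0.0757), with and without the slide block, and as a mean over probes for Hbb-bh1 (0.78) and Kat2a (-0.033). List medians turned against E8.5 replicates 4 to 6 for chromatin (0.16), immediate early genes (0.22) and MYC and E2F factors (0.19), and in the within-slide steps for autophagy (-0.0856), cardiac markers (0.0146) and mitosis (-0.0748). The causes were not tested. Transcripts under background at 1 end have a bound in place of a fold. Globin probes near the top of the scale may understate changes, which was not tested.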

Other observations

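A set of 114 genes (1.26% of those tested) followed one course over the 15 arrays from E8.5 to E11.5. It was chosen after values were seen, as the genes whose level minus their own mean lay within 0.4 log2 units (root mean square) of that of Kdr, and its values are a description with no test. Distances of members reached 0.397, next to this limit, so the limit sets their number. Each gene correlated with Kdr at 0.934 to 0.997 over these arrays, which the choice fixes. The median member was 2.07 higher at E11.5 than at E8.5 (range 1.21 to 2.65), with steps of 1.55 on the first, -0.43 on the second and 0.97 on the third day, and it read 1.04 lower in E8.5 replicates 4 to 6 than in replicates 1 to 3 (a difference of -1.04).

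The members lie on chromosomes 1 to 19 and X, apart from Pisd-ps3, whose chromosome is listed as unknown. They include genes with no known link to red cells. Examples are the olfactory receptor Olfr1221, the pseudogene of a vomeronasal receptor Vmn1r-ps103, the synaptic protein Syt7 and the cartilage factor Sox5. The members make up 5.95% of the genes called higher. 12 stand on a list used here: Kdr, Emcn, Flt4, Prrx1, Cks2, Rbl1, Hmbox1, Osm, Egln3, Kat2a, Jam3 and Acp1. The probes that stand for all 114 were called higher in the net comparison, against E8.5 replicates 4 to 6 and in the within-slide steps. Closeness to Kdr, itself called in each of these ways, largely fixes this. For some members another probe was called lower, among them Kat2a (-2.09), Dcbld1 (-1.36) and Aldh5a1 (-1.07). Among the 79 with a promoter in the RefSeq table, 8.86% held the GATA motif and 5.06% the KLF1 motif, against 8.52% and 9.73% of tested genes. What the probes of these genes share was not examined.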
